A study of Mus musculus with 9 samples.

Results

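Dendritic cells (DCs) activate T cells with antigen on MHC molecules together with costimulatory ligands, and the 8 genes described here encode the ligands Cd80, Cd86, Icosl, Tnfsf4, Tnfsf9 and Cd70, the receptor Cd40 and the maturation marker Cd83. They were found by symbol among the 54532 genes listed in the deposited table. Each symbol had 1 row, and all 8 passed the filter on low values, a level of 1 FPKM or more in 3 samples, which left 12746 genes for testing. FPKM divides the reads of a gene by its length in kilobases and by the size of the library.

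The values come from bulk RNA-seq of CD11c+ cells sorted from spleens of female mice on the C57BL/6J background, 6 to 8 weeks of age, with 3 samples in each of 3 groups. N-mDCs were the mature conventional DCs (cDCs) of normal mice. T-mDCs were the mature cDCs of mice with T-cell acute lymphoblastic leukemia (T-ALL). T-DCs, titled immature DCs in the labels, came from leukemic mice too and were gated as CD11c+ with little MHCII on the surface. The leukemia was made by retroviral expression of the intracellular domain of Notch1 (ICN1) with GFP, and GFP+ leukemia cells were transplanted into mice that were not irradiated, whose own DCs were therefore present. Leukemic spleens were taken on day 15. Spleen cells were enriched with CD11c microbeads, freed of red cells by lysis and sorted by flow cytometry. MHCII was part of the sort, and none of the 8 genes was. The labels do not say whether samples of a group came from separate mice or from pooled mice, so p-values measure the spread between these samples, which may be technical. Values are listed below in the order of sample numbers, 1 to 3, within each group.

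CD80 and CD86 are the B7 ligands of CD28, which drives T cell activation, and of CTLA-4, which restrains it. ICOS ligand binds ICOS on activated T cells. OX40 ligand (Tnfsf4), 4-1BB ligand (Tnfsf9) and CD70 are members of the TNF ligand family that sustain T cell expansion and survival through OX40, 4-1BB and CD27. CD40 receives the signal of CD40 ligand on helper T cells, and its signal through TRAF adaptors and NF-kB raises B7 ligands on DCs. CD83 marks mature DCs and slows the turnover of MHCII and CD86 at the surface by opposing the ubiquitin ligase MARCH1. Most of these molecules rise as DCs mature.

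Reads counted on genes ranged from 15360815 to 18440913 per sample. Some libraries stood apart. Within T-DCs, sample 1 correlated with samples 2 and 3 at Pearson r of 0.836 and 0.808 over the tested genes, and samples 2 and 3 with each other at 0.961. The summed FPKM of 8 erythroid genes was 596 in T-DC sample 1 and up to 57906 in the other T-DC samples, against 96.3 to 5277 in N-mDCs and 15.1 to 177 in T-mDCs. The sum of 7 neutrophil genes was 8.59 in T-DC sample 1 and up to 4322 in the others, against 56.6 to 661 in N-mDCs. The part of these cells in the levels of the 8 genes was not tested. T-mDC samples 2 and 3 were nearly alike, with a chi-square per gene of 1.80 over genes of 20 to 200 reads, where the other pairs within a group gave 5.45 or more. For genes of 2000 or more reads, their value was 3.73, above counting noise but far under the 111 to 1364 of all other same-group pairs. A distance above counting noise cannot decide whether T-mDC samples 2 and 3 are independent. Both were kept as samples, so tests that count 3 T-mDC samples assume that they are. Their mean as 1 sample was used as an alternative. Itgax, which encodes CD11c, was 158 to 230 FPKM across N-mDCs, 43.0 to 152 across T-DCs and 159 to 167 across T-mDCs, so the sorting marker was transcribed in every sample. Flt3, Zbtb46 and Kmo, markers of cDCs, were lower in T-DCs than in either mature group, at 4.48 to 15.4 FPKM against 44.4 to 89.1 for Flt3. In bulk samples, fewer cells of a type and less RNA per cell cannot be told apart.

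All 8 genes were lower in T-DCs than in both mature groups, with no overlap of samples. The median of their log2 fold changes was -2.92 with N-mDCs as the reference and -2.52 with T-mDCs, beside 0.053 and 0.068 over all tested genes. Of the 8 genes, 6 passed the test in each comparison (limma on log2(FPKM + 1), adjusted p under 0.05), namely Cd40, Cd80, Cd83, Icosl, Tnfsf4 and Tnfsf9. Tnfsf4 and Cd70 reached 1 FPKM in mature samples only. They passed the filter through the groups where they were high, which favours a call of lower in T-DCs, so the call of Tnfsf4 adds little to the count. Over all tested genes, 10.3% were called lower in T-DCs than N-mDCs and 8.79% lower than in T-mDCs. Samples of T-DCs lay wholly below N-mDCs in 16.4% of tested genes and wholly below T-mDCs in 18.1%. Both comparisons use the same T-DC samples, and 5.59% of tested genes were called lower in both, as the 6 members were. Cd86 and Cd70 did not pass in either. With the mean of the erythroid genes as a covariate, 5 members were called against N-mDCs, and 0 members and 0 genes in the whole table against T-mDCs, where the erythroid mean separates the groups. In T-DC sample 1, a single library whose erythroid sum lay within the range of N-mDCs, Cd40, Cd80, Cd83, Icosl, Tnfsf4 and Tnfsf9 were below every mature sample, and for Cd86 and Cd70 the gap to the mature samples was within counting error. A fit with T-DC sample 1 as the lone T-DC sample called 4 members in each comparison, Cd40, Cd83, Icosl and Tnfsf9, with the lone sample assumed to vary like the others.

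**Figure D1:**
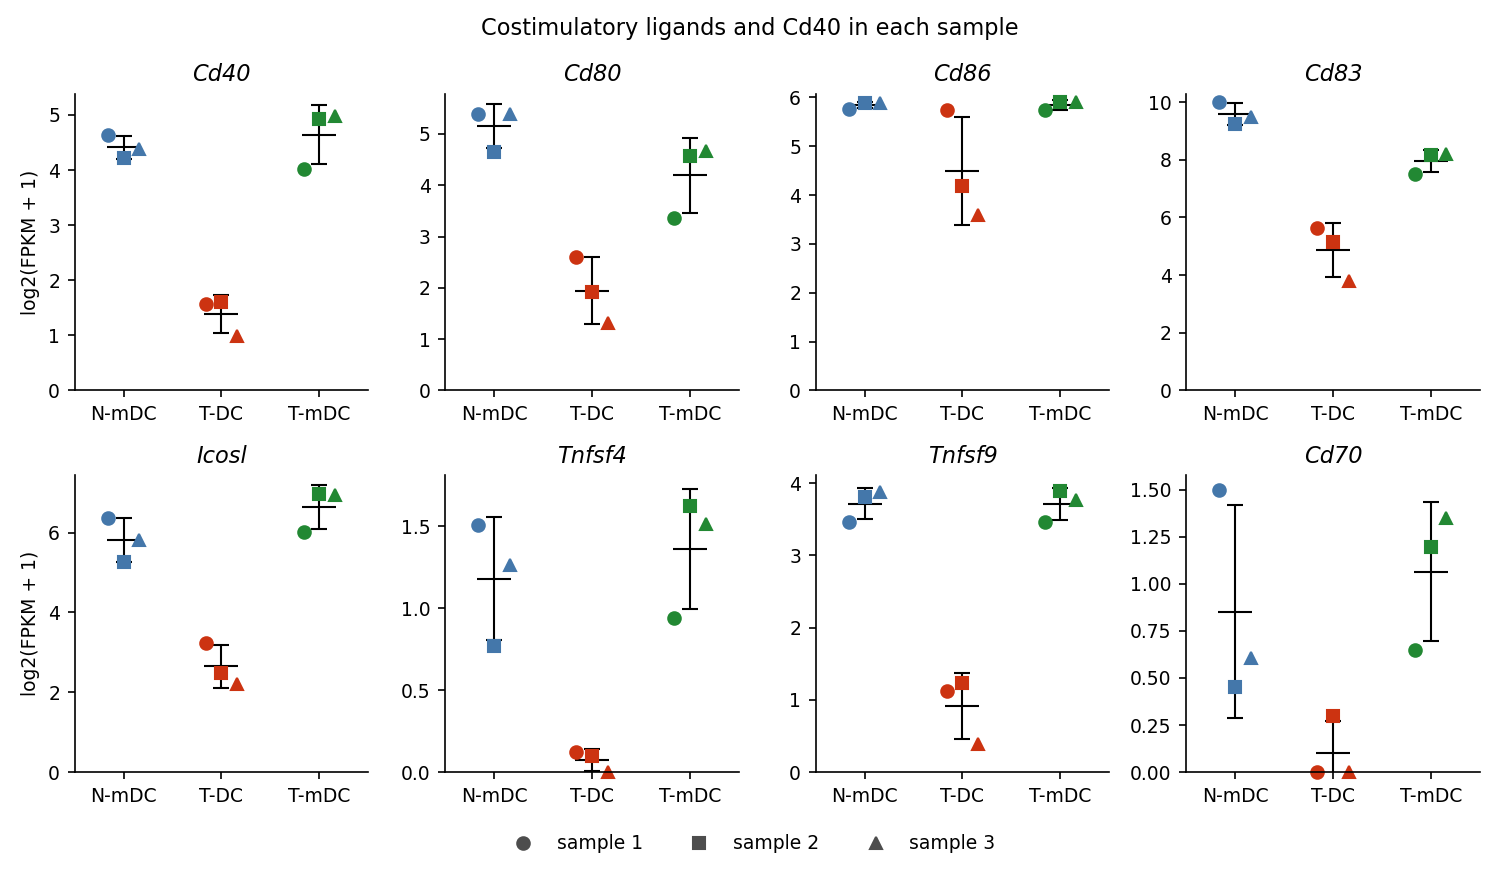
Level of each gene as log2(FPKM + 1) on the y axis, by group on the x axis, with 1 marker per sample and a black bar for the mean ± SD of 3 samples. Scales differ between panels and start at 0. The T-DC samples lie below all samples of the other groups in every panel, and Cd86 in T-DC sample 1, at 52.2 FPKM, lies just under them.

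Cd40, the receptor for CD40 ligand (ENSMUSG00000017652, GRCm38 chr2:165055627-165072948, + strand), reached 23.9, 17.7 and 19.8 FPKM in the N-mDC samples. Its values were 1.95, 2.05 and 0.986 in the T-DC samples, and 15.3, 29.3 and 30.7 in the T-mDC samples. All T-DC samples were low, while the mature groups overlapped. The means ± SD were 20.5 ± 3.15 in N-mDCs, 1.66 ± 0.586 in T-DCs and 25.1 ± 8.51 in T-mDCs (n = 3 each). On the log2(FPKM + 1) scale, the fold change of T-DCs from N-mDCs was -3.03 ± 0.29 (SE, limma adjusted p = 0.000845) and that from T-mDCs was -3.26 ± 0.29 (limma adjusted p = 0.00126). The mean FPKM of N-mDCs was 12.3 times that of T-DCs, and that of T-mDCs 15.1 times. Between the mature groups the difference was 0.23, with a 95% confidence interval of -0.44 to 0.90 (limma adjusted p = 0.742). The T-DC calls of Cd40, and likewise those of Cd83, Icosl and Tnfsf9, held without any single sample.

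Cd83, the maturation marker (ENSMUSG00000015396, chr13:43784775-43803132, + strand), was the most abundant of the 8 transcripts in each mature group. Its FPKM was 1013, 608 and 714 in the N-mDC samples, 48.4, 34.3 and 13.01 in those of T-DCs and 181, 283 and 291 in those of T-mDCs. The 3 groups did not overlap, with N-mDCs highest, T-mDCs between and T-DCs lowest. The log2 fold change of T-DCs from N-mDCs was -4.71 ± 0.45 (SE, limma adjusted p = 0.000798), the largest decrease among the 8 genes, and that from T-mDCs was -3.09 ± 0.45 (limma adjusted p = 0.00407). Mean FPKM was 24.4 times that of T-DCs in N-mDCs and 7.88 times in T-mDCs. T-mDCs differed from N-mDCs by -1.63 (95% confidence interval -2.65 to -0.60), which did not pass the correction (limma adjusted p = 0.115, unadjusted p = 0.00596). All T-mDC samples were below all N-mDC samples for Cd83, as for 15.7% of tested genes. The call for Cd83 between the mature groups changed with the fit, since only the groups compared gave a limma adjusted p of 0.0258, and the fits without T-DC sample 1 or T-DC sample 3 gave 0.0396 and 0.032.

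Cd80, a B7 ligand of CD28 and CTLA-4 (ENSMUSG00000075122, chr16:38455561-38496335, + strand), reached 41.1, 24.2 and 41.0 FPKM in the N-mDC samples. In the T-DC samples it was 5.10, 2.77 and 1.49, and in the T-mDC samples it was 9.23, 22.9 and 24.3. T-DCs were lowest throughout, and T-mDC sample 1 was well under the other T-mDC samples. The log2 fold change of T-DCs from N-mDCs was -3.20 ± 0.44 (SE, limma adjusted p = 0.00289) and that from T-mDCs was -2.25 ± 0.44 (limma adjusted p = 0.0128). The second call was lost without T-mDC sample 2 (-2.06, limma adjusted p = 0.0676) or sample 3 (-2.02, limma adjusted p = 0.0681), and both calls were lost with T-DC sample 1 as the lone T-DC sample (limma adjusted p = 0.0521 and 0.128). Between the mature groups the difference was -0.95 (95% confidence interval -1.95 to 0.048, limma adjusted p = 0.321).

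Cd86, the other B7 ligand, lies 1789 kb from Cd80 on the opposite strand (ENSMUSG00000022901, chr16:36603869-36666081, - strand). Its FPKM was nearly the same in all mature samples, at 53.4, 58.2 and 57.9 in the N-mDC samples and 52.3, 59.1 and 59.2 in the T-mDC samples. In the T-DC samples it was 52.2, 17.1 and 11.1, so that sample 1 lay close to the mature groups and samples 2 and 3 far below. Cd86 in T-DC sample 1 missed the lowest mature sample by less than counting error, with 52.2 against 52.3 FPKM. The log2 fold change of T-DCs was -1.34 ± 0.46 (SE, limma adjusted p = 0.0762) relative to N-mDCs and -1.35 ± 0.46 (limma adjusted p = 0.0841) relative to T-mDCs, and neither passed. Without T-DC sample 1, both passed, at -1.96 (limma adjusted p = 0.000238) and -1.97 (limma adjusted p = 0.000319). Monocytes and macrophages also express Cd86, and T-DC sample 1 was highest of the T-DC samples in the sums of their markers too. This was not particular to them, since sample 1 was also highest in sums of DC markers, unlike the erythroid and neutrophil sums. For 5 genes of DCs in general, the T-DC samples summed to 183, 110 and 62.9 FPKM. For 7 cDC1 genes they summed to 191, 84.6 and 48.1, and for 6 cDC2 genes to 442, 223 and 118. The summed FPKM of 5 monocyte genes was 717, 383 and 249.04 in the T-DC samples, beside 237 to 412 across N-mDCs and 73.5 to 247 across T-mDCs, and that of 7 red pulp macrophage genes was 2220, 755 and 438, beside 1581 to 2951 and 275 to 1038. Of these 12 genes, Ccr2 was called lower in T-DCs than N-mDCs and Cx3cr1 higher than in T-mDCs, and the part of these cells in the level of Cd86 was not tested. Between the mature groups the difference was 0.0082, with a 95% confidence interval of -1.03 to 1.05.

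The B7 ligands thus differed in how far T-DCs were from mature cells. Cd86 FPKM was 1.3 to 2.41 times Cd80 in N-mDC samples, 6.19 to 10.3 times in T-DC samples and 2.44 to 5.67 times in T-mDC samples. The log2 ratio of Cd80 to Cd86 was -0.38, -1.27 and -0.50 in the N-mDC samples, -3.36, -2.63 and -2.89 in T-DC samples and -2.50, -1.37 and -1.29 in T-mDC samples. T-DCs were lowest, N-mDCs highest, and no groups overlapped. The gap between the mature groups, -1.27 in N-mDC sample 2 and -1.29 in T-mDC sample 3, was within counting error. The mean log2 ratio of T-DCs minus that of N-mDCs was -2.24, that of T-DCs minus T-mDCs was -1.24, and that of T-mDCs minus N-mDCs was -1.005. In each case the exact two-sided permutation test gave p = 0.1, the smallest that 3 against 3 samples allow. On the log2(FPKM + 1) scale, T-DCs and T-mDCs overlapped in this ratio (difference -0.90, exact permutation p = 0.3).

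Relative to Itgax, a comparison added after the values were seen, Cd86 of T-DCs overlapped both mature groups. It was 34.5%, 19.0% and 25.7% of Itgax FPKM in the T-DC samples, 23.2%, 36.8% and 36.2% in N-mDC samples and 33.0%, 35.7% and 35.4% in T-mDC samples. Cd80 was 3.36%, 3.07% and 3.48% of Itgax in the T-DC samples, below every mature sample, the lowest of which were 15.3% in N-mDCs and 5.82% in T-mDCs. Cd40, Cd83, Icosl, Tnfsf4 and Tnfsf9 relative to Itgax were also lower in all T-DC samples than in all mature samples, while Cd70 overlapped N-mDCs. Each of the non-overlapping differences had an exact two-sided permutation p of 0.1, the smallest possible, and those of Cd86 had p = 0.5 relative to N-mDCs and 0.2 relative to T-mDCs. In the fit of every gene relative to Itgax, 5 members passed in the comparison with N-mDCs and 4 in that with T-mDCs, and the median of all tested genes was shifted to 1.14 and 1.02. This fit kept the pseudocount of 1, so genes near 0 FPKM, such as Tnfsf4 and Cd70, could fall little in it while Itgax fell.

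**Figure D2:**
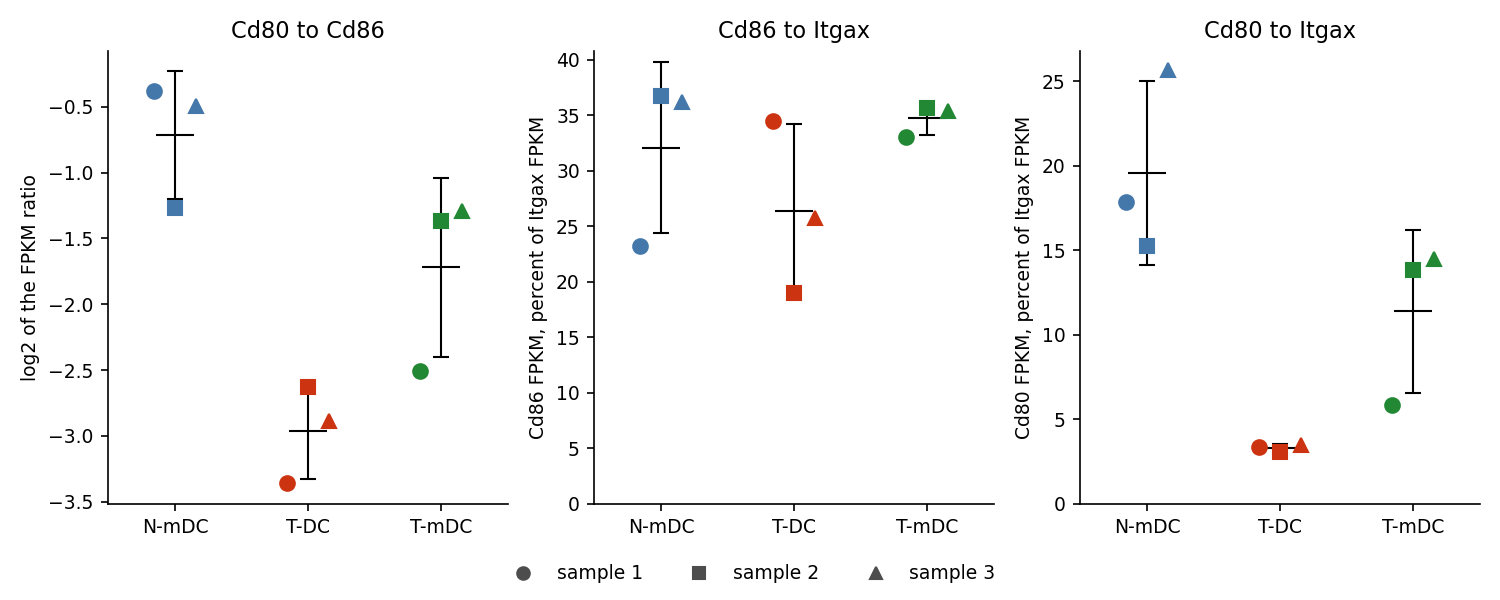
The left panel plots the log2 ratio of Cd80 to Cd86 FPKM in each sample, the middle panel Cd86 and the right panel Cd80 as a percent of Itgax FPKM, with black bars for the mean ± SD of 3 samples. T-DC samples are lowest for the ratios of Cd80 to Cd86 and to Itgax, while Cd86 to Itgax in T-DC samples (19.0% to 34.5%) overlaps both mature groups.

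Icosl, which encodes the ligand of ICOS (ENSMUSG00000000732, chr10:78069302-78083913, + strand), reached 81.1, 37.7 and 55.0 FPKM in the N-mDC samples. It was 8.47, 4.58 and 3.65 in the T-DC samples, and 63.8, 124 and 122 in the T-mDC samples. T-DCs were far below both groups, and T-mDC samples 2 and 3 were above every N-mDC sample. The log2 fold change of T-DCs from N-mDCs was -3.17 ± 0.39 (SE, limma adjusted p = 0.0019) and that from T-mDCs was -4.00 ± 0.39 (limma adjusted p = 0.00143), the largest decrease of the 8 genes against T-mDCs. Mean FPKM was 10.4 times that of T-DCs in N-mDCs and 18.6 times in T-mDCs. The difference between the mature groups, 0.83, had a 95% confidence interval of -0.060 to 1.72 (limma adjusted p = 0.329). Relative to Itgax, Icosl was 40.3% to 74.8% in T-mDC samples and 23.8% to 35.2% in N-mDC samples, which did not overlap.

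Of the 8 genes, only Cd80 and Icosl had an entry among the RefSeq promoter sequences used here, of build GRCm38.p6, and are shown for that reason. Both were lower in T-DCs, as all 8 genes were, and their promoters differed in base composition. Each run holds the 250 bases before the start of the RefSeq transcript on the + strand, chr16:38458683-38458932 for Cd80 and chr10:78069118-78069367 for Icosl. The Cd80 run is inside the span of the gene given above, and the end of the Icosl run reaches into the span of Icosl. Capitals mark a match to the AP-1 motif TGANTCA.
Cd80: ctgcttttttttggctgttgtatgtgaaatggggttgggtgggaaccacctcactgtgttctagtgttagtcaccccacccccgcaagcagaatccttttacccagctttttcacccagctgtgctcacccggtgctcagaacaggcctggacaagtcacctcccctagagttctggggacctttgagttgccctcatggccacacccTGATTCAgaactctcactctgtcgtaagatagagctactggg
Icosl: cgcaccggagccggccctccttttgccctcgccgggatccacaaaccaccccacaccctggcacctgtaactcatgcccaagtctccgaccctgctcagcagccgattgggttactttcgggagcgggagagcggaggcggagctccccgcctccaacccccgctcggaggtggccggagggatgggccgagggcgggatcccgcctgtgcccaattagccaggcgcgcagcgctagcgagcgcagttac
The Cd80 run was 52.8% G and C with 3 CpG, close to the median of 52.4% over 32851 promoters. The Icosl run was 68.8% G and C with 23 CpG, above 89.0% of promoters. Motifs were searched on both strands. The AP-1 motif TGANTCA was found 1 time in Cd80, starting 42 bases before the start, and was matched on both strands there, since TGANTCA is its own reverse complement. It was in 6.75% of all promoters. No match was found in either run to the NF-kB consensus (3.9% of promoters) or to GAGGAA, 1 form of ETS site (23.3%). The same held for a pair of IRF half-sites, GAAA repeated after 2 other bases (2.98%). This says only that these letters are not in these windows, and other forms of an ETS site were not searched.

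Tnfsf9, which encodes 4-1BB ligand (ENSMUSG00000035678, chr17:57105325-57107757, + strand), reached 10.1, 12.95 and 13.7 FPKM in the N-mDC samples. It was 1.17, 1.35 and 0.306 in the T-DC samples, and 10.02, 13.8 and 12.6 in the T-mDC samples. The mature groups overlapped closely, with all T-DC samples far below. The log2 fold change of T-DCs was -2.80 ± 0.25 (SE) from both groups (limma adjusted p = 0.000696 for N-mDCs and 0.00126 for T-mDCs). The difference between the mature groups was -0.0069, with a 95% confidence interval of -0.58 to 0.57. Tnfsf9 overlaps the lincRNA Gm11110 on the opposite strand, which reached at most 1.86 FPKM, and the strand setting of the counting was not given in the sources used here, so reads of the pair may be mixed.

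Tnfsf4 and Cd70 were the least abundant, and their values rest on few reads. Tnfsf4, which encodes OX40 ligand (ENSMUSG00000026700, chr1:161395409-161418410, + strand), reached 1.84, 0.708 and 1.41 FPKM in the N-mDC samples, 0.0909, 0.0701 and 0 in those of T-DCs and 0.920, 2.08 and 1.86 in those of T-mDCs. These came from 121 reads in N-mDCs, 5 in T-DCs and 169 in T-mDCs, and the 0 reads of T-DC sample 3 allow up to 0.107 FPKM (3 reads). The ratio of T-DCs to N-mDCs in reads scaled for library size was 0.0424, with a 95% counting interval of 0.0135 to 0.102, and that to T-mDCs was 0.0345 (0.0111 to 0.0820). All T-DC samples were lowest, with a log2 fold change of -1.11 ± 0.25 relative to N-mDCs (SE, limma adjusted p = 0.0203) and -1.29 ± 0.25 relative to T-mDCs (limma adjusted p = 0.0125), sizes that the pseudocount of 1 understates. Neither call was firm. The first was lost without N-mDC sample 1 (limma adjusted p = 0.0746), N-mDC sample 3 (0.0694), T-DC sample 2 (0.0616) or T-DC sample 3 (0.0629), and the second without T-mDC sample 2 (0.0702) or sample 3 (0.0706).

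Cd70, the ligand of CD27, lies 38.2 kb from Tnfsf9 on the opposite strand (ENSMUSG00000019489, chr17:57145997-57149777, - strand). Its FPKM was 1.82, 0.369 and 0.523 in the N-mDC samples, 0, 0.230 and 0 in those of T-DCs and 0.566, 1.29 and 1.55 in those of T-mDCs. The groups rest on 37, 3 and 54 reads, and 0 reads allow up to 0.199 FPKM in T-DC sample 1 and 0.235 in T-DC sample 3, so its place below the mature samples is within counting error for some of them. Cd70 passed the filter with exactly 3 samples of at least 1 FPKM, all of them mature. Its log2 fold change in T-DCs was -0.75 ± 0.31 relative to N-mDCs (SE, limma adjusted p = 0.119) and -0.96 ± 0.31 relative to T-mDCs (limma adjusted p = 0.0698). The read ratio was 0.0833 to N-mDCs (95% counting interval 0.0164 to 0.263) and 0.0647 to T-mDCs (0.0129 to 0.199). Without T-mDC sample 1, Cd70 passed against T-mDCs (-1.17, limma adjusted p = 0.0484). Intervals and limits from reads cover counting error only.

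**Figure D3:**
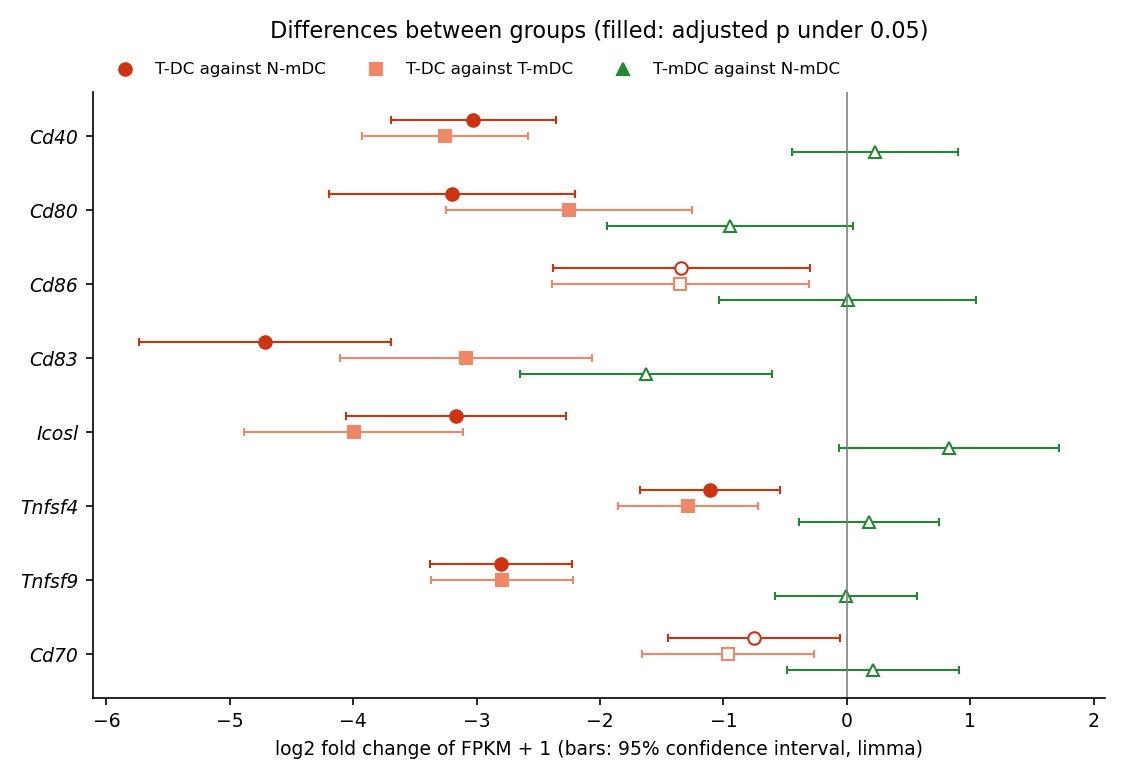
Log2 fold change of FPKM + 1 on the x axis for each gene on the y axis, in 3 comparisons, with bars for the 95% confidence interval from limma and filled markers where the adjusted p was under 0.05. Both T-DC comparisons are below 0 for all 8 genes, and 6 of 8 are filled in each, while 0 are filled between T-mDCs and N-mDCs.

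Between T-mDCs and N-mDCs, the comparison of mature cDCs with and without leukemia, 0 of 8 members passed the limma test, where 2.21% of all tested genes did in either direction. At an unadjusted p under 0.05 there was 1, Cd83, and limma voom on the recovered reads called 0. The log2 fold change was above 0 in 5 members and below 0 in 3, with a median log2 fold change of 0.093 beside 0.027 over all tested genes, and the signs of Cd86, Tnfsf4 and Tnfsf9 turned under some settings. The intervals given above for single genes reach past a 1-unit log2 difference for Cd80, Cd83, Cd86 and Icosl, so a p that missed the threshold does not show that the groups were alike.

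The order of the genes by FPKM, a scale per kilobase of gene, changed between groups mainly after Cd83. In N-mDCs it ran Cd83 (778.5 ± 209.9, mean ± SD of FPKM), Icosl (57.9 ± 21.9), Cd86 (56.5 ± 2.70), Cd80 (35.4 ± 9.75), Cd40, Tnfsf9 (12.2 ± 1.91), Tnfsf4 (1.32 ± 0.571) and Cd70 (0.905 ± 0.799). Icosl and Cd86, and Tnfsf4 and Cd70, overlapped between neighbours there. In T-DCs the order began with Cd83 (31.9 ± 17.8) and Cd86 (26.8 ± 22.2), whose samples overlapped, followed by Icosl (5.57 ± 2.56), Cd80 (3.12 ± 1.83), Cd40 and Tnfsf9 (0.942 ± 0.558), each overlapping the next, and last by Cd70 and Tnfsf4, which overlapped. In T-mDCs it was Cd83 (251 ± 61.5), Icosl (103 ± 34.2), Cd86 (56.9 ± 3.95), then Cd40, Cd80 (18.8 ± 8.31) and Tnfsf9 (12.2 ± 1.95), in which Cd40 overlapped Cd80 and Cd80 overlapped Tnfsf9, and last Tnfsf4 and Cd70, which overlapped.

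Summed over the 8 genes, FPKM was 760 to 1226 in N-mDC samples, 30.5 to 117 in T-DC samples and 333 to 543 in T-mDC samples, with no overlap. Cd83 made up 79.0% to 82.6% of that sum across N-mDCs, 41.2% to 54.9% across T-DCs and 52.8% to 54.3% across T-mDCs. Cd86 made up 4.35% to 7.66% across N-mDCs, 27.4% to 44.5% across T-DCs and 10.9% to 15.7% across T-mDCs. The share of Cd86 was thus highest in T-DCs without its FPKM being higher there. Icosl held 4.96% to 6.62% across N-mDCs, 7.21% to 11.96% across T-DCs and 19.2% to 23.2% across T-mDCs, its largest share.

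**Figure D4:**
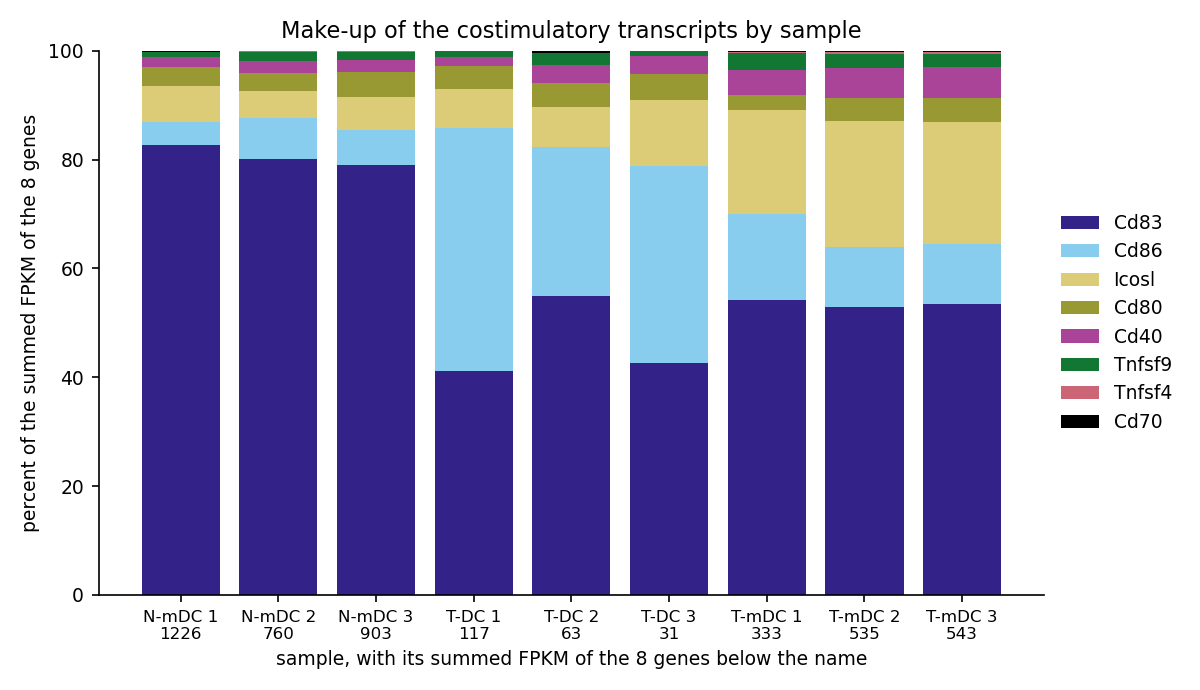
Percent of the summed FPKM of the 8 genes contributed by each gene (y axis, 0 to 100) in each sample (x axis, with the summed FPKM under its name). Cd83 fills 79.0% to 82.6% of N-mDC bars, Cd86 27.4% to 44.5% of T-DC bars and Icosl 19.2% to 23.2% of T-mDC bars.

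Genes that carry the signal from CD40 and other TNF receptors to NF-kB formed a list of 18, all tested. Of these, 6 were lower and 0 higher in T-DCs than in N-mDCs (median log2 fold change -0.74), and 8 were lower and 0 higher than in T-mDCs (median -0.92). Over all tested genes, 6.1% were called higher in T-DCs than in N-mDCs and 5.44% higher than in T-mDCs. Relb, a subunit of the alternative NF-kB pathway, was 144, 84.0 and 94.7 FPKM in the N-mDC samples, 19.2, 14.4 and 8.43 in those of T-DCs and 110, 154 and 159 in those of T-mDCs. T-DCs were below all others, with -2.88 in log2 (limma adjusted p = 0.00151) relative to N-mDCs and -3.29 (limma adjusted p = 0.00143) relative to T-mDCs. Traf1, an adaptor that CD40 recruits, changed by -3.04 (limma adjusted p = 0.00177) and -3.25 (limma adjusted p = 0.00197). Rel, the c-Rel subunit, changed by -3.03 (limma adjusted p = 0.00636) and -2.29 (limma adjusted p = 0.0207), and Nfkb2, which makes the partner of RelB, by -1.22 (limma adjusted p = 0.025) and -1.54 (limma adjusted p = 0.0112). Birc2, which encodes the ubiquitin ligase cIAP1, changed by -1.02 and -2.31 in T-DCs and by 1.28 in T-mDCs relative to N-mDCs (limma adjusted p = 0.0325, 0.00197 and 0.0469). Relative to Itgax, Birc2 of T-DCs was no longer lower than that of N-mDCs, at 0.068. Birc3, which encodes cIAP2, was called lower against T-mDCs and not against N-mDCs, without a test of the difference between these comparisons. Against N-mDCs, the calls of Relb and Traf1 held in all 25 alternatives, while that of Rel was lost in 2, that of Nfkb2 in 10 and that of Birc2 in 13 beside the 1 that turned it. Against T-mDCs, the calls of Relb and Traf1 were lost in 1 alternative each, Birc2 in 2, Nfkb2 in 6, Rel in 10 and Birc3 in 15.

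**Figure D5:**
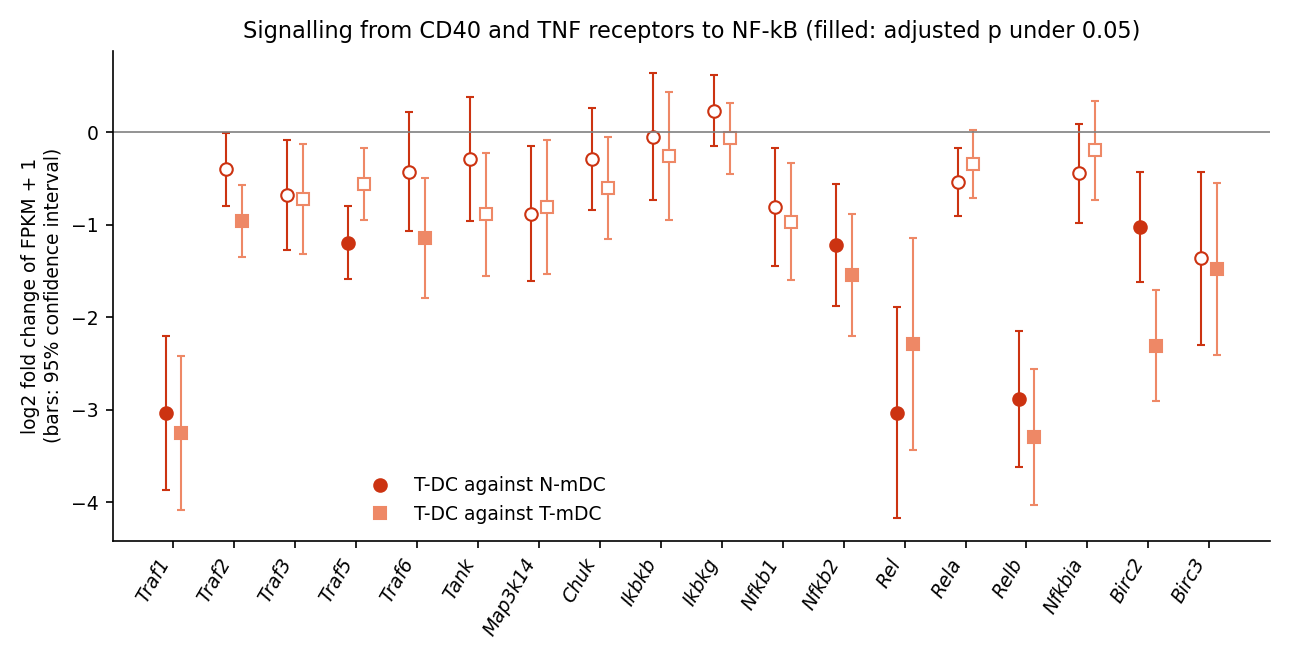
Log2 fold change of FPKM + 1 of T-DCs (y axis) for the 18 genes of signalling from CD40 and TNF receptors to NF-kB (x axis), against N-mDCs (circles) and T-mDCs (squares), with 95% confidence intervals and filled markers where the limma adjusted p was under 0.05. Traf1 and Relb lie between -2.88 and -3.29 in both comparisons.

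Other ligands of the same families were mixed. Among other B7-like ligands, 4 of 8 were tested and 0 passed in any comparison by limma, and Cd274, which encodes the inhibitory ligand PD-L1, was 98.7, 35.5 and 80.1 FPKM in the N-mDC samples, 60.7, 41.2 and 23.4 in those of T-DCs and 71.7, 94.3 and 95.7 in those of T-mDCs. T-DCs and N-mDCs overlapped for Cd274, unlike for Cd80 and Icosl. Its log2 fold change in T-DCs was -0.74 relative to N-mDCs (limma adjusted p = 0.252) and -1.13 relative to T-mDCs (limma adjusted p = 0.119). Of 11 other TNF family ligands tested, 5 were lower than in N-mDCs, with a median log2 fold change of -0.98, and 1 was lower than in T-mDCs, with a median of -0.18. Lta, which encodes lymphotoxin alpha, was lower in both (-2.43, limma adjusted p = 0.00857, and -3.69, limma adjusted p = 0.00197). The others were Tnfsf14, Fasl, Ltb and Tnfsf8. Tnfsf14 was also lower in T-mDCs than in N-mDCs, at -1.40 (limma adjusted p = 0.0177), as was Fasl at -1.84 (limma adjusted p = 0.0339). Fasl is known from NK cells and T cells, and NK cell genes moved the same way, with a summed FPKM over 6 genes of 128 to 179 across N-mDCs, 3.92 to 20.5 across T-DCs and 22.8 to 33.8 across T-mDCs. Klrd1 made up most of that sum in T-mDCs, at 21.7 to 31.6 FPKM. It was 70.1 to 93.2 FPKM across N-mDCs and 2.47 to 7.98 across T-DCs. All 6 were called lower in T-DCs than N-mDCs and 5 of them lower in T-mDCs than N-mDCs, while Klrd1 alone was lower in T-DCs than T-mDCs. The part of NK cells in these ligands was not tested. Ncr1, Klrb1c, Eomes, Fasl and Tnfsf8 reached 1 FPKM in N-mDC samples only. They thus passed the filter through the group where they were high, which favours a call of lower against N-mDCs.

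The partners of the members, which T cells are known for, were read in the same libraries. Of 6 tested, 3 were lower in T-DCs than N-mDCs and the same number lower than in T-mDCs. Tnfrsf4, which encodes OX40, was 14.0, 6.37 and 7.87 FPKM in the N-mDC samples, 0.654, 1.42 and 1.93 in those of T-DCs and 5.04, 7.77 and 8.29 in those of T-mDCs. Its log2 fold change was -2.13 (limma adjusted p = 0.00447) relative to N-mDCs and -1.80 (limma adjusted p = 0.00958) relative to T-mDCs, and Icos and Tnfrsf9, which encodes 4-1BB, were lower too, at -1.95 and -1.96 against N-mDCs (limma adjusted p = 0.00207 and 0.00228) and -1.65 and -2.14 against T-mDCs (limma adjusted p = 0.00439 and 0.00197). Beside this, the summed FPKM of 9 T-lineage genes was 115 to 123 across N-mDCs, 14.8 to 35.7 across T-DCs and 60.7 to 112 across T-mDCs. Cd8a and Cd4, which cDCs are known to express as well, made up most of that sum in N-mDCs and T-mDCs. The called genes among the 8 tested were Cd8a, Cd4 and Cd8b1 against N-mDCs and Cd8a against T-mDCs, all lower in T-DCs, while Cd3d, Cd3e, Cd3g, Lck and Trac overlapped between T-DCs and N-mDCs. The summed FPKM of 7 B cell genes was 242 to 317, 33.7 to 101 and 63.5 to 200. B cells also express Cd40, Cd80, Cd86, Cd83 and Icosl, and 5 of 6 tested B cell genes were lower in T-DCs than N-mDCs and 2 of 6 lower than in T-mDCs. The part of these cells in the members' levels was not tested.

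Genes of DC maturation other than Cd83 moved with the members. Of 8 listed, 6 were tested, and all 6 were lower in T-DCs in both comparisons, with a median log2 fold change of -4.16 relative to N-mDCs and -4.58 relative to T-mDCs. Ccr7, the chemokine receptor that guides mature DCs to T cell zones, was 867, 295 and 576 FPKM in the N-mDC samples, 9.54, 24.6 and 1.60 in those of T-DCs and 539, 899 and 923 in those of T-mDCs. The sum over the 8 genes was 515 to 1495 across N-mDCs, 24.0 to 59.8 across T-DCs and 1164 to 1715 across T-mDCs, so that T-DCs were far below in every sample. The decrease was not limited to maturation genes. Of 7 cDC1 marker genes, 5 were called lower than in N-mDCs and 7 lower than in T-mDCs (median log2 fold change -2.07 and -2.76). Of 6 cDC2 marker genes, 5 and 3 were called lower (median -3.31 and -1.55). Among 8 tested adhesion and accessory genes of the contact between DCs and T cells, by contrast, 1 was lower than in N-mDCs, Pvr (-1.81, limma adjusted p = 0.00895). Against T-mDCs, Pvr (-1.18, limma adjusted p = 0.0465) and Icam1 (-1.66, limma adjusted p = 0.0383) were lower and Icam2 was higher (1.16, limma adjusted p = 0.0209). The calls against T-mDCs were lost in 17 of 25 alternatives for Pvr, 15 for Icam1 and 7 for Icam2. The median over these genes was -0.050 relative to N-mDCs and -0.17 relative to T-mDCs.

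MARCH1 and MARCH8 are ubiquitin ligases that remove CD86 from the surface. March1 was 22.5, 15.9 and 20.6 FPKM in the N-mDC samples, 28.2, 12.6 and 7.41 in those of T-DCs and 21.7, 25.1 and 24.5 in those of T-mDCs. T-DC sample 1 was highest of all samples and T-DC samples 2 and 3 were lowest. March1 did not pass in T-DCs (log2 fold change -0.45, limma adjusted p = 0.44 against N-mDCs, and -0.72, limma adjusted p = 0.256 against T-mDCs). Over the 9 samples, which share the group differences, the levels of Cd86 and March1 on the log2(FPKM + 1) scale had a Pearson r of 0.90, and their deviations from group means 0.94. Deviations of the other members correlated with those of March1 at 0.20 (Cd70) to 0.89 (Cd83). March8 was 4.27, 56.8 and 38.1 FPKM in the T-DC samples and at most 2.32 in the others, and was called higher in T-DCs (3.02, limma adjusted p = 0.0328, and 3.50, limma adjusted p = 0.0213). The T-DC samples high in March8 were those high in the erythroid genes, its calls were lost in 13 and 9 of 24 alternatives, and the part of erythroid cells in March8 was not tested.

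Among themselves, the levels of the 8 genes on the log2(FPKM + 1) scale correlated over the 9 samples at Pearson r of 0.57 (Cd86 and Cd70) to 0.98 (Cd40 and Tnfsf9, Cd40 and Icosl, Cd80 and Cd83), values that share the difference between T-DCs and the mature groups. As deviations from group means, the correlations ranged from -0.065 (Cd86 and Cd70) to 0.93 (Cd80 and Icosl), with Cd40 and Tnfsf9 at 0.62. Of all tested genes, the pattern most like that of Cd83 was in Klrd1, a receptor chain of NK cells (r = 0.997), then Gpr132 and Carns1 (0.996 each). For Cd40 these were Tbc1d4 (0.996), Shb and Adgra2 (0.995 each), for Cd80 Cyb561a3 (0.995), Zbtb21 (0.993) and Gabbr1 (0.992), and for Icosl Ccser1 (0.998), Nek6 and Trim7 (0.994 each). For Tnfsf9 they were Gpr183, the receptor that positions DCs in the spleen (0.991), Spib (0.988) and Gramd3 (0.986), and for Tnfsf4 Vsig10 (0.997), Lad1 (0.995) and St8sia1 (0.993). Likeness was lower for Cd86, with Galnt11 (0.986), Pid1 and Rgl2 (0.984 each), and for Cd70, with Letm2 (0.988), Gm44516 (0.966) and Gm12397 (0.962). All are Pearson r over 9 samples.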

How the data were processed

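The authors deposited FPKM per gene for 9 samples, on mouse genome build mm10 per the submitters' processing notes. The aligner, the counter, the annotation and the strand setting were not given in the sources used here. FPKM multiplied by gene length and by a scaling size found for each sample (15183712 to 19326367 reads) was a whole number of reads to within 4.56e-05, which gave the depth. Symbols that the table stored as dates, 27 in all, were restored by Ensembl identifier. Testing covered 12746 genes (1 FPKM or more in 3 samples) on the log2(FPKM + 1) scale by limma 3.58.1 under R 4.3.3, with moderated variances that follow a trend, with all 3 groups in 1 fit and Benjamini-Hochberg adjustment over all tested genes at 0.05. The procedure was checked on simulated data. Ratios within a sample were compared with exact permutation tests. The members and lists were chosen with earlier results of these data known. All 8 members were named, with the list genes called in a T-DC comparison, at most 6 a list, list genes whose values stand beside a member's, and the 3 tested genes of highest Pearson r with each member. Alternatives were a pseudocount of 0.1, no filter, a filter at 5 FPKM, TPM, quantile and median-of-ratios scaling, array weights, a fit of the compared groups alone, a fit without a variance trend, a log2 threshold of 1, a replicate block, limma voom on recovered reads, the mean of T-mDC samples 2 and 3, an erythroid covariate and leaving out each sample. Values relative to Itgax and T-DC sample 1 as the lone T-DC sample were added after the data were seen. The study's other assays were not used here.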

Additional observations from a re-analysis of the deposited data

How the results depend on the processing

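The 8 log2 fold changes in 3 comparisons were recomputed 582 times under 25 alternatives, and the direction held in 193 of 194 cases for T-DCs against N-mDCs, 193 of 194 against T-mDCs and 180 of 194 between the mature groups. Many of these cases could not change direction, because the alternative changes the test and not the fold change. These were the other filters, no variance trend, the log2 threshold, the compared groups alone and the replicate block. Leaving out a sample of the group not compared is another. The tallies therefore overstate how far the direction was tried. No reversed value passed the threshold, and no cause of a change was tested. The depth limits Tnfsf4 and Cd70, which could not be fitted with the filter at 5 FPKM. Cd70 also left the fits that averaged T-mDC samples 2 and 3 or lacked N-mDC sample 1, T-mDC sample 2 or T-mDC sample 3.

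Against N-mDCs, array weights called Cd86 (-1.64) and Cd70 (-0.78). Tnfsf4 was not called with the erythroid covariate (-0.76) or in the fit relative to Itgax (-0.016), where Cd70 was 0.34. That fit kept the pseudocount of 1, so genes near 0 FPKM could fall little on its scale while Itgax fell. As a plain ratio, Tnfsf4 averaged 0.046% of Itgax FPKM in T-DCs, 0.709% in N-mDCs and 0.983% in T-mDCs. With T-DC sample 1 as the lone T-DC sample, Tnfsf4 was -1.06 and Cd80 was -2.54. Against T-mDCs, the erythroid covariate called 0 members and left Cd40 at -2.67, Cd80 at -0.86, Cd83 at -1.77, Icosl at -2.63, Tnfsf4 at -0.78, Tnfsf9 at -2.61 and Cd86 at 0.10. Averaging T-mDC samples 2 and 3, Cd80 (-2.04) and Tnfsf4 (-1.18) were not called, nor were they relative to Itgax (-1.29 and -0.33) or with T-DC sample 1 alone (-1.59 and -1.23). Array weights called Cd86 (-1.72) and Cd70 (-0.94). Cd70 was also called with a pseudocount of 0.1 (-2.95), as TPM (-1.93) and by voom (-4.09).

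Between the mature groups, Cd83 was called by the fit of only the groups compared (-1.63), array weights (-1.61), the erythroid covariate (-2.04) and with T-DC sample 1 alone (-1.63), which made 1 member each and 3 with array weights, where Cd80 (-0.78) and Icosl (0.84) were called as well. Cd86 was -0.021 when T-mDC samples 2 and 3 were averaged and -0.45 with the erythroid covariate. Tnfsf9 was 0.20 as TPM, 0.015 with quantile scaling, 0.16 with array weights, 0.087 by voom and 0.13 relative to Itgax. Scaling to TPM moved the median of all genes to -0.23 for T-DCs against T-mDCs and 0.21 between the mature groups.

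Leaving out each sample gave 5 to 7 members called against N-mDCs, 4 to 7 against T-mDCs and 0 to 1 between the mature groups. Log2 fold changes ranged from -1.96 to -0.89 for Cd86 and -1.31 to -0.94 for Tnfsf4 against N-mDCs. Against T-mDCs they ranged from -1.97 to -0.89 for Cd86, -2.67 to -1.94 for Cd80, -1.49 to -1.15 for Tnfsf4 and -1.17 to -0.92 for Cd70. Between the mature groups they ranged from -1.79 to -1.40 for Cd83, -0.031 to 0.066 for Cd86, -0.026 to 0.39 for Tnfsf4 and -0.13 to 0.12 for Tnfsf9.

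The labels do not say whether samples of the same number in different groups are paired. Deviations of same-numbered samples correlated at -0.47 to 0.27, and those of differently numbered samples of different groups at -0.36 to 0.43. Deviations from means of 3 samples cannot decide whether samples are paired. With the replicate block, 5 members were called against N-mDCs, 6 against T-mDCs and 0 between the mature groups, and the call lost was that of Tnfsf4 against N-mDCs (-1.11, limma adjusted p = 0.0533).

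Of the list genes, relative to Itgax Birc2 (0.068), March1 (0.64), Tnfsf8 (0.11) and Cd274 (0.35) turned positive against N-mDCs, and Ltb (0.0075), Tnfsf14 (0.53), March1 (0.23) and Tnfsf8 (0.77) against T-mDCs. Tnfsf8 and Tnfsf14 were at most 0.508 and 1.15 FPKM in T-DCs, where the pseudocount of 1 limits how far a gene can fall in this fit. With the erythroid covariate, March1 (0.48) and Cd274 (0.22) did so against N-mDCs, and March1 (0.64), Itgax (0.23) and Cd274 (0.27) against T-mDCs, while Fasl against T-mDCs became -0.26. With T-DC sample 1 alone, March1 was 0.51 and 0.24 and Fasl against T-mDCs was -0.059, and it was -0.032 without T-DC sample 2.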
